A study of Mus musculus with 120 samples.

Results

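The mice described here are the 14 of 60 obese F2 mice that were called H, heterozygous, at D6Mit224, the marker of chromosome 6 nearest the map position set for the region beside the leptin gene, out of 194 genotyped markers. They were set against the 43 mice called A, homozygous for one founder allele, at the same marker. No mouse was called B, homozygous for the other founder allele, and 3 mice, all recorded female, had no call and were left out. The A group held 21 females and 22 males, and the H group held 7 females and 7 males. The founder strain behind each letter was not stated, so the groups keep their letters.

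All animals were ob/ob F2 offspring of C57BL/6J and BTBR mice, so both groups lacked functional leptin. They were killed at 14 weeks of age after a 4 h fast, and total liver RNA of each mouse was hybridised to a pair of Affymetrix arrays, MOE430A and MOE430B, giving 120 arrays. The comparison asks whether mice that carry a B allele at D6Mit224 differ in liver expression from those that do not. How far this marker lies from the leptin gene was not worked out here.

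Leptin is a hormone of fat cells that acts on the hypothalamus to restrain feeding, and loss of it in ob/ob mice gives severe obesity, hyperinsulinaemia and a fatty liver. Because every ob/ob animal is homozygous for the mutant gene, the chromosome around Lep comes from the founder that carried the mutation, and a heterozygous call close to it means that 1 chromosome recombined between the gene and the marker. A gene whose own variants change its transcript level differs most between genotype groups at markers near it, and this is called a cis effect.

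The calls along chromosome 6 showed how much of it separated the groups. At D6Mit86, the first marker of the map, 13 of the H mice were called A and 1 had no call, whereas 12 of the A mice were H and 1 was B there, so 32.5% of the 40 A mice with a call carried a B allele. On the other side, every H mouse with a call carried a B allele at D6Mit188 (10 called), D6Mit8 (14 called) and D6Mit149 (14 called), which lies 22.1 cM beyond D6Mit224. Among the A mice, the share with a B allele went from 20.6% at D6Mit188 to 22% at D6Mit8, 41.9% at D6Mit149 and 66.7% at D6Mit14, the last marker, 57.2 cM beyond D6Mit224. Of the H mice, 10 were called A at none of the distal markers, 1 was first called A at D6Mit23, 2 at D6Mit25 and 1 at D6Mit14. The groups thus differed most between D6Mit224 and D6Mit149 and little at D6Mit14, where the mean number of B alleles was 0.92 in H and 0.83 in A mice.

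**Figure D1:**
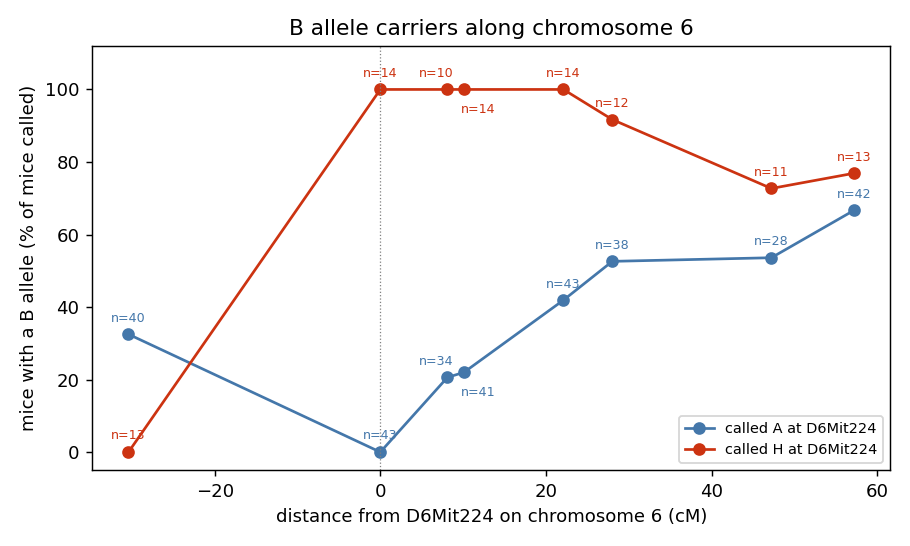
Share of mice with at least 1 B allele (y axis, % of mice called) at each chromosome 6 marker, by distance from D6Mit224 (x axis, cM), for mice called A (blue) or H (red) at D6Mit224, with the number called beside each point. The H mice stay at 100% for 3 further markers, while the A mice climb to 66.7% at the last one.

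Outside chromosome 6 the share of heterozygous calls was 45.2% ± 4.53 (SD, n = 14) in H and 46.9% ± 7.15 (SD, n = 43) in A mice. Of 186 markers elsewhere, 5 differed by more than 0.5 B alleles between the group means, led by D1Mit46 on chromosome 1, with 1.64 in H and 1.05 in A mice, and D15Mit15 on chromosome 15, with 0.64 and 1.24. The part of these markers in the expression differences was not tested.

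Some mice stood apart or went against their labels. The arrays of mice 167, 474 and 559 correlated less with the others than the rest did, and all 3 mice were called A. Xist, a transcript of the inactive X chromosome, had a mean level over its 3 probe sets of at most 6.59 in 4 mice recorded female, against at least 8.88 in the other females, and 1 mouse recorded male was high. All 5 were called A. Over the 100 probe sets that the array types share, 56 of 60 mice had a MOE430A profile most like their own MOE430B profile. The exceptions included H mice 416 and 608 and A mouse 560, and mouse 608 had a correlation of 0.174 with its own second array against 0.452 with that of another mouse. Albumin (Alb), the main plasma protein made by hepatocytes, lay at a log2 level of 14.11 among the highest of MOE430A. Results are given with all 57 mice unless stated otherwise.

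No probe set differed between H and A mice at a Benjamini-Hochberg adjusted p under 0.05. Of 22626 probe sets on MOE430A, limma called 0 (0% of those tested), with a smallest adjusted p of 0.983, and 966 (4.27%) had an unadjusted p under 0.05, 515 with a higher mean in H and 451 with a lower one. Of 22511 on MOE430B it called 0 (0%), with 659 (2.93%) at an unadjusted p under 0.05. The median difference over both array types was close to 0, at 0.00245 on MOE430A and -0.00286 on MOE430B on the log2 scale. The median standard error of a difference was 0.041 and 0.0353, and a probe set with that error would have needed a difference of 0.215 or 0.184 to pass as the only call. Probe sets with a lower error needed less. Without mice 416, 560 and 608 limma again called 0, and the share at an unadjusted p under 0.05 was 1.75% on MOE430A and 2.22% on MOE430B.

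**Figure D2:**
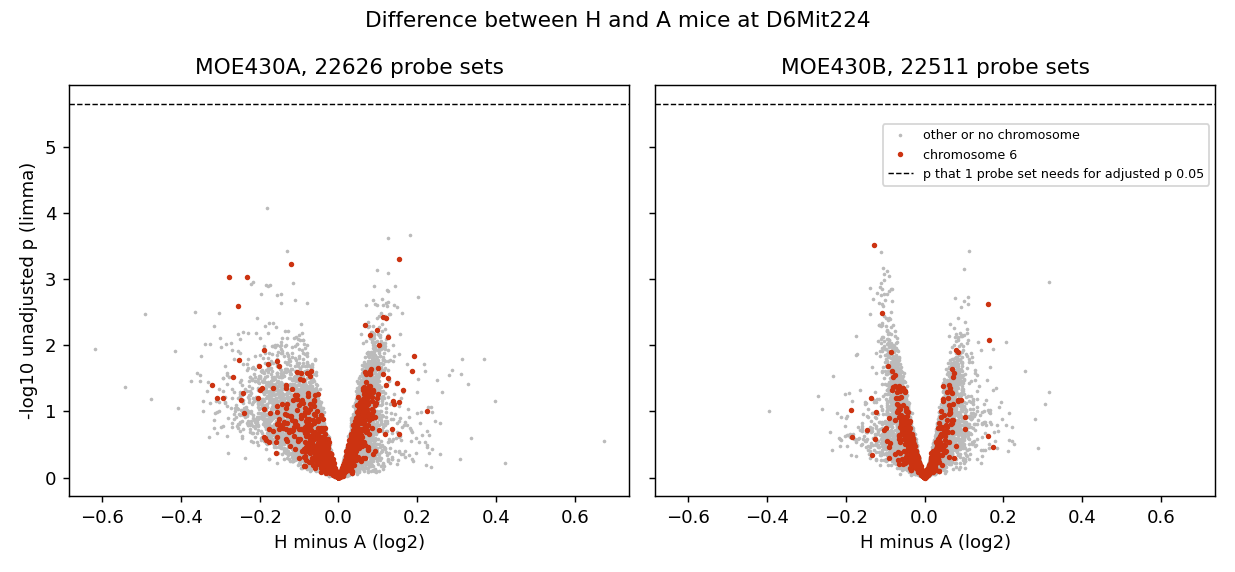
Difference of group means, H minus A on the log2 scale (x axis), against -log10 of the unadjusted limma p (y axis) for each probe set of MOE430A (left) and MOE430B (right), with chromosome 6 in red. The dashed line is the p that a single probe set would need for an adjusted p of 0.05, and no point reaches it.

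Chromosome 6 held 1929 of the probe sets, for 992 genes, and limma called 0 of them. At an unadjusted p under 0.05 there were 84, or 4.35%, against 3.6% of all 45137 probe sets. Of these, 42 had a higher and 42 a lower mean in H mice, and among all probe sets 1.75% were under it with a higher and 1.85% with a lower mean. At an unadjusted p under 0.001 there were 5, or 0.259%, against 0.0399% of all probe sets. This lower threshold was chosen after the values were seen.

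Placed by gene order, the smallest p-values did not lie next to Lep. Every mouse was ob/ob, so at Lep and close to it both groups carry the chromosome of the same founder. The groups could thus hardly differ in genotype there, and low shares beside Lep were set by the design. How far that shared stretch reaches was not worked out. Of the 184 probe sets on the centromeric side of Lep, 3.8% had an unadjusted p under 0.05, and of the 218 in the first 100 protein-coding genes beyond it, 3.67% did, with the smallest p at 0.0116 for Ssbp1, which codes for the mitochondrial single-stranded DNA-binding protein. The share was 4.76% in genes 400 to 499 and 6.9% in genes 500 to 599, from 9 and 12 probe sets under 0.05. These 2 stretches held 8 of the probe sets with an unadjusted p under 0.01, and each other stretch held 0 to 2. They were singled out after the values were seen. The share of all probe sets under 0.01 was not worked out, so whether these values cluster was not tested. In the last stretch, genes 1000 to 1022 from Lep, 0 of 49 probe sets were under 0.05. Marker positions in cM were not converted to gene order here.

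**Figure D3:**
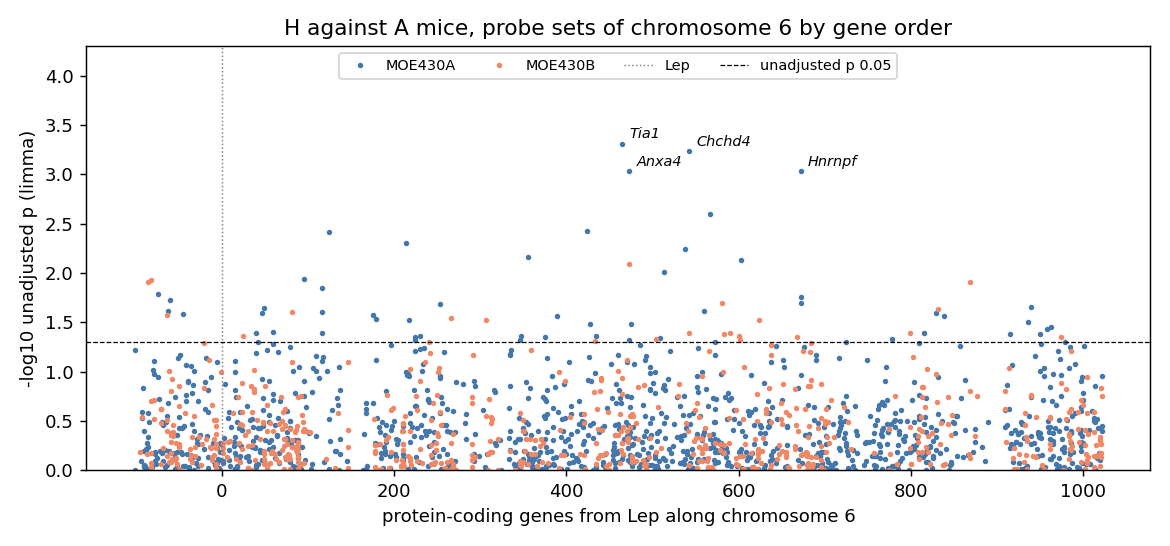
Unadjusted limma p of each chromosome 6 probe set (y axis, -log10) by the number of protein-coding genes between its gene and Lep (x axis, negative towards the centromere), for MOE430A (blue) and MOE430B (orange). The 4 named probe sets, at p from 0.000493 to 0.000936, lie 465 to 672 genes beyond Lep.

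Lep itself, the gene mutated in every animal, was measured by 1 probe set on MOE430A (1422582_at). Its log2 level ran from 5.94 through a median of 6.17 to 6.37 in A mice and from 5.98 through 6.19 to 6.33 in H mice. The groups overlapped fully, and the levels lay under the median level of the array, 7.04. Both groups are homozygous for the mutant gene, so this comparison holds no contrast in genotype at Lep itself. The difference in Lep level was 0.02 (95% interval -0.05 to 0.09, SE 0.0348, limma adjusted p = 0.992).

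The chromosome 6 genes with the smallest p-values were singled out after their values were seen, and none passed the test. Of those in gene order, Tia1 codes for an RNA-binding protein of stress granules, Chchd4 for the oxidoreductase that imports and folds proteins of the mitochondrial intermembrane space, Anxa4 for annexin A4, a calcium-dependent membrane-binding protein, and Hnrnpf for a splicing factor. The promoters of the first 3, 300 bases around the start as RefSeq gives them on GRCm38.p6, are shown because the levels of these genes are followed along the chromosome below.
Anxa4, chr6:86793535-86793834, minus strand: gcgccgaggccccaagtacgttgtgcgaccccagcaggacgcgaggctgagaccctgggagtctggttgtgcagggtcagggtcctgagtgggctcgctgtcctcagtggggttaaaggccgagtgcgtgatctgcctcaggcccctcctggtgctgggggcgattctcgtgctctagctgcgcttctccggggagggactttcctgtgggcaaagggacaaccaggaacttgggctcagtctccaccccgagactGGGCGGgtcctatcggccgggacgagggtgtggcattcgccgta
Chchd4, chr6:91473374-91473673, minus strand: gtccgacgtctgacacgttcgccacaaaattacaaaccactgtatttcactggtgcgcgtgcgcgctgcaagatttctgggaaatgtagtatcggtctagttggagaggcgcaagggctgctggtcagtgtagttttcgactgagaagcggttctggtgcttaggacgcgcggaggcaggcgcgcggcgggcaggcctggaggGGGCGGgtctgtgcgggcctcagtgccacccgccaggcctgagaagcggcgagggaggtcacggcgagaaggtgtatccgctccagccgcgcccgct
Tia1, chr6:86403969-86404268, plus strand: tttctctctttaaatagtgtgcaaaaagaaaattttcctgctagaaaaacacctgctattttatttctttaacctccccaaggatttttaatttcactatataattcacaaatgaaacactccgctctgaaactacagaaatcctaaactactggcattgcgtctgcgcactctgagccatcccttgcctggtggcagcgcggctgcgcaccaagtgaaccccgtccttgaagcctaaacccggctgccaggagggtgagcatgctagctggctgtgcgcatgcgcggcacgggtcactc
Capitals mark the GC box GGGCGG, searched on both strands together with the TATA box TATAAA and the CCAAT box CCAAT. The GC box stood once in the Anxa4 and Chchd4 windows and not in that of Tia1, and neither other motif was in any of the 3. Of 32851 RefSeq promoters of this length, 35.7% held GGGCGG, 13.6% TATAAA and 37.4% CCAAT on either strand. The G and C share was 65.3% for Anxa4, 63% for Chchd4 and 48% for Tia1, beside a median of 52.7%.

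Chchd4 (1417233_at) had log2 levels from 8.20 through a median of 8.47 to 8.65 in A mice and from 8.19 through 8.34 to 8.49 in H mice. Of the 14 H mice, 13 lay under the median of the A mice, although the groups overlapped over most of their range. The mean was 8.33 ± 0.0977 (SD, n = 14) in H and 8.45 ± 0.11 (SD, n = 43) in A mice, a difference of -0.12 (95% interval -0.19 to -0.05, SE 0.0334, limma adjusted p = 0.983). It was -0.11 in females and -0.13 in males, and -0.10 without mice 416, 560 and 608 (unadjusted limma p = 0.00518).

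Anxa4 was measured by 3 probe sets that did not move the same way. On 1421223_a_at, A mice ran from 7.76 through 8.14 to 8.80 and H mice from 7.61 through 7.89 to 8.33, so 12 of 14 H mice were under the A median. The difference was -0.23 (95% interval -0.37 to -0.10, limma adjusted p = 0.983). On 1424176_a_at it was 0.16 (0.0014 to 0.33, limma adjusted p = 0.983) and on 1457658_x_at of MOE430B 0.16 (0.04 to 0.28, limma adjusted p = 1), where 12 of 14 H mice were above the A median. The opposite signs mean that no single direction can be given for Anxa4 transcripts.

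Tia1 had the smallest p of the genes in order on this chromosome, on 1416812_at. Levels ran from 5.85 through 6.15 to 6.41 in A mice and from 5.94 through 6.34 to 6.48 in H mice, and 12 of 14 H mice were above the A median. The difference was 0.16 (95% interval 0.07 to 0.24, limma adjusted p = 0.983). The other 5 Tia1 probe sets, 2 on MOE430A and 3 on MOE430B, had differences from -0.06 to 0.02 with unadjusted p from 0.117 to 0.777 in limma, so the value rests on 1 probe set. Without mice 416, 560 and 608 it was 0.17.

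Hnrnpf was the one with several probe sets on the same side. On 1456664_x_at, whose suffix marks probes that can also match other transcripts, A mice ran from 7.40 through 7.85 to 8.52 and H mice from 6.99 through 7.60 to 8.01. The difference was -0.28 (95% interval -0.44 to -0.12, limma adjusted p = 0.983), and 3 H mice lay below every A mouse. The other 3 probe sets had differences of -0.14, -0.16 and -0.15. Without mice 416, 560 and 608 the difference on 1456664_x_at was -0.20, with an unadjusted limma p of 0.0176.

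Other chromosome 6 probe sets among the 10 smallest p-values included Uba3, for the catalytic subunit of the NEDD8-activating enzyme, with a difference of -0.26 (SE 0.081), and Actg2, for smooth muscle gamma actin, with 0.11 (SE 0.037). The smallest p of MOE430B, 0.000301, was that of 2610300M13Rik, an unplaced transcript in the gene order, at -0.13 (SE 0.0337). Its level was low, with a mean of 3.35 in A and 3.22 in H mice. All had limma adjusted p-values of 0.983 or higher.

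**Figure D4:**
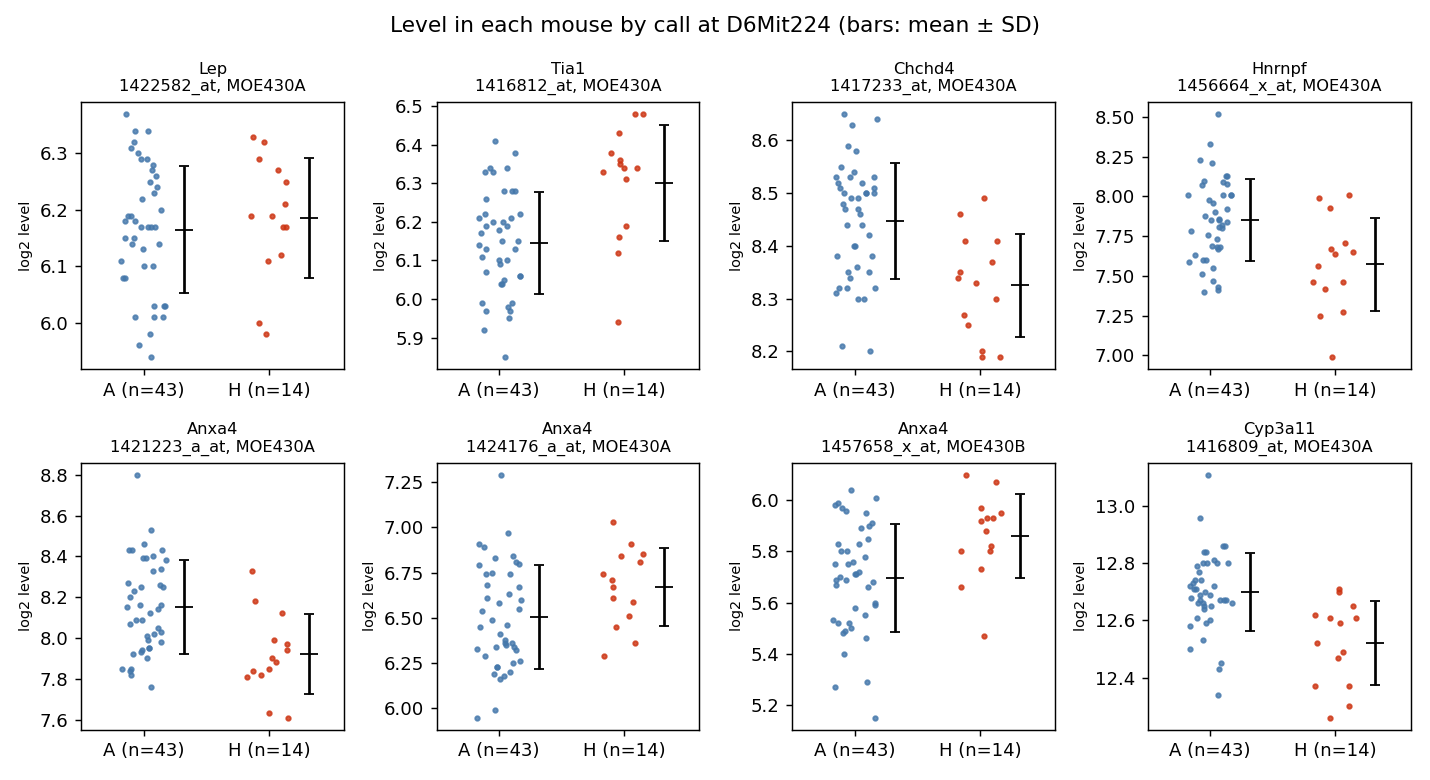
Log2 level of each mouse (points) by call at D6Mit224 for Lep, Tia1, Chchd4, Hnrnpf, the 3 probe sets of Anxa4 and Cyp3a11, with mean and SD as bars (n = 43 A and 14 H). The groups overlap in every panel, and the first Anxa4 probe set runs opposite to the other 2.

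The 4 leading genes were next followed along the chromosome by repeating the same fit at each of the other markers, a step added after the values were seen. For Chchd4 the difference between H and A mice was 0.09 at D6Mit86, -0.12 at D6Mit224, -0.14 at D6Mit188 and -0.13 at D6Mit8 and at D6Mit149. It was -0.09 at D6Mit23, -0.04 at D6Mit25 and -0.10 at D6Mit14, with SE from 0.0269 to 0.0348. Of the mice called H at D6Mit86, 12 were called A and 0 were called H at D6Mit224. How far each marker lies from Chchd4 was not worked out. The smallest limma adjusted p of Chchd4 was 0.317, at D6Mit149. The values at these markers share most of their mice and are not separate evidence. For Anxa4 on 1421223_a_at the difference was -0.25 at D6Mit188, -0.24 at D6Mit8, -0.20 at D6Mit149 and -0.08 at D6Mit14. For Tia1 on 1416812_at it was 0.16 at D6Mit224, 0.06 at D6Mit188, 0.08 at D6Mit8 and 0.15 at D6Mit149. For Hnrnpf on 1456664_x_at it was -0.28 at D6Mit224, -0.13 at D6Mit188, -0.10 at D6Mit8 and -0.11 at D6Mit149. The 4 genes thus did not show one pattern of values along the chromosome, and changes from marker to marker were not tested.

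Among mice called A at D6Mit224, the call at D6Mit149 divided the levels of Chchd4 further. The 25 mice called A at both had a median of 8.50 (range 8.32 to 8.65), and the 15 called H at D6Mit149 had 8.40 (8.20 to 8.53). The 13 mice called H at both had 8.34 (8.19 to 8.49). For Tia1 on 1416812_at the same 3 groups had medians of 6.11, 6.21 and 6.34, and for Hnrnpf on 1456664_x_at 7.85, 7.86 and 7.64. For Anxa4 the medians were 8.20, 8.03 and 7.90 on 1421223_a_at, 6.41, 6.60 and 6.71 on 1424176_a_at and 5.69, 5.80 and 5.88 on 1457658_x_at. The median of the mixed group lay between the other medians for Chchd4, Tia1 and Anxa4 and not for Hnrnpf, and the ranges overlapped throughout. These genes were picked for their difference at D6Mit224 in the same mice, so the order of the outer groups was largely set by that choice. The place of the mixed group was not tested. The 3 mice called A at D6Mit224 and B at D6Mit149 had medians of 8.35 for Chchd4, 6.20 for Tia1 and 7.60 for Hnrnpf. For Anxa4 they had 8.01, 6.34 and 5.80 on the same 3 probe sets.

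At D6Mit14, where the H and A groups of D6Mit224 hardly differed in genotype, the fit called 4 probe sets of MOE430A between its own 17 A and 29 H mice, and 0 of MOE430B (713 at an unadjusted p under 0.05). These were Pik3c2g, for a class II phosphoinositide 3-kinase, with a difference of 0.32 (SE 0.0487, limma adjusted p = 0.000774), Slco1a1, for an organic anion transporter of the hepatocyte membrane, on 1449844_at with 0.48 (SE 0.0764, limma adjusted p = 0.00131), and Tm7sf3, for a transmembrane protein, on 1438504_x_at with -0.35 (SE 0.0593, limma adjusted p = 0.00258) and on 1428098_a_at with -0.23 (SE 0.043, limma adjusted p = 0.0116). The other 2 Tm7sf3 probe sets had -0.03 and -0.11 and the other Slco1a1 probe set 0.64, with limma adjusted p-values of 1, 1 and 0.135. The 3 genes lie 958 to 1000 genes from Lep. The same probe sets had differences of 0.15, 0.15, -0.15 and -0.09 at D6Mit224, with limma adjusted p-values of 0.983. At the other 6 markers limma called 0 on either array, with 1.83% to 6.2% of probe sets of MOE430A and 2.42% to 4.5% of MOE430B at an unadjusted p under 0.05.

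On other chromosomes, the smallest p was that of Cyp3a11 on chromosome 5, a cytochrome P450 that oxidises steroids and drugs, on 1416809_at. Levels ran from 12.34 through 12.69 to 13.11 in A mice and from 12.26 through 12.55 to 12.71 in H mice, and 12 of 14 H mice lay under the A median. The difference was -0.18 (95% interval -0.27 to -0.10, SE 0.0428, limma unadjusted p = 8.51e-05 and adjusted p = 0.983). Cyp3a11 has close relatives in the Cyp3a family whose transcripts the probes may share. On chromosome 5, D5Mit221 was among the markers that differed between the groups, with 1.36 B alleles in H and 0.88 in A mice, and its part was not tested. Mrpl1, a mitochondrial ribosomal protein gene also on chromosome 5, had -0.13 (SE 0.0347) and Evpl, for the cornified envelope protein envoplakin, 0.13 (SE 0.032).

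Gene lists for liver functions gave 0 members past an adjusted p of 0.05 in any of 19 lists, beside the 0% of all probe sets given above, so the following are counts at an unadjusted p under 0.05 in limma, for which the background was 3.6%. Of 24 probe sets of leptin and its responsive genes, 1 was under it. This was Stat3, the transcription factor that carries the leptin receptor's signal, on 1424272_at, at 0.06 (SE 0.0311, limma adjusted p = 0.983), and the other 3 Stat3 probe sets ranged from -0.053 to 0.038. The list median was -0.00277. The number was 0 without mouse 343, without the 5 mice whose Xist level went against their sex and without mice 416, 560 and 608. With all mice kept, the number was also 0 with the first principal component in the fit, after quantile normalization again and with a robust variance estimate. Among mice with the same call at the next distal marker the 1 under it had the lower mean in H mice. Of 105 probe sets for liver genes of proximal chromosome 6, 5 (4.76%) were under it, all with the lower mean in H mice, with a list median of -0.0106. They were Sgce, for epsilon-sarcoglycan, at -0.08, Bpgm, for bisphosphoglycerate mutase, at -0.10, Cav2, for caveolin 2, at -0.10, Pdia4, for an endoplasmic reticulum disulfide isomerase, at -0.08 and Mtpn, for myotrophin, at -0.32. On further probe sets Sgce had -0.02 (1420688_a_at), and Bpgm had -0.12 (1415864_at) and -0.01 (1448119_at). Over the whole list 49 of the 105 differences were above 0. Without mice 416, 560 and 608 the number under 0.05 was 2. Without mice 167, 474 and 559 that number was 9, of which 2 had the higher mean in H mice.

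Among the lists on chromosome 6, 2 of 22 probe sets of the kappa light chain and neighbouring genes were under it, Igk at 0.07 and Reg1 at 0.11, and 0 of 35 of distal chromosome 6, where the smallest p was that of the glucose transporter Slc2a3 at 0.09 (limma p = 0.0503). The other 3 Igk probe sets had 0.0045, 0.07 and -0.03. H mouse 343, described below, had the highest Reg1 level, and without it 0 of the 22 were under it.

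The lipid lists had the medians farthest from 0 among the metabolic ones. For cholesterol synthesis and uptake the median difference was 0.0899, and 26 of 29 probe sets had the higher mean in H mice, but only 2 were under an unadjusted p of 0.05. Both were for Fdft1, squalene synthase, at 0.12 (SE 0.0409) on 1438919_x_at and 0.08 (SE 0.0393) on 1438918_at. Hmgcs1, for the enzyme that makes HMG-CoA, had 5 probe sets from -0.01 to 0.12. For fatty acid and triglyceride synthesis the median was 0.0746, 32 of 44 probe sets had the higher mean in H mice, and 1 was under it, Acaca, for acetyl-CoA carboxylase, at 0.08 (SE 0.0368). Both lists moved with the processing. Among mice with the same call at D6Mit224 and the next distal marker, the cholesterol median was 0.0367 and the fatty acid median turned to -0.000926. With the first principal component in the fit the medians were 0.149 and 0.134, with 7 of 29 and 6 of 44 probe sets under 0.05. Without mouse 343 the counts were 1 and 2, and without mice 416, 560 and 608 they were 1 and 0. Within the fatty acid list Scd1, the stearoyl-CoA desaturase, ran the other way at -0.33 (95% interval -0.88 to 0.22) on 1415964_at, where H mice ran from 9.06 through 13.34 to 13.66 and A mice from 9.29 through 13.33 to 13.76. The group medians thus lay much closer together than the means, 12.79 in H and 13.12 in A mice. Members of a list were measured in the same mice and are not independent.

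For fatty acid oxidation the median was -0.0164 with 0 of 31 under it, and the smallest p was that of Cyp4a14, a fatty acid omega-hydroxylase induced by PPARA, at -0.24 (95% interval -0.50 to 0.02). For gluconeogenesis and glycolysis the median was 0.0149 with 0 of 28 under it, led by Ppargc1a at -0.08. Male-biased liver genes had a median of 0.0228 with 0 of 23 under it, led by Uty at 0.06, and female-biased ones 0.0155 with 0 of 21, led by Fmo2 at 0.07.

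**Figure D5:**
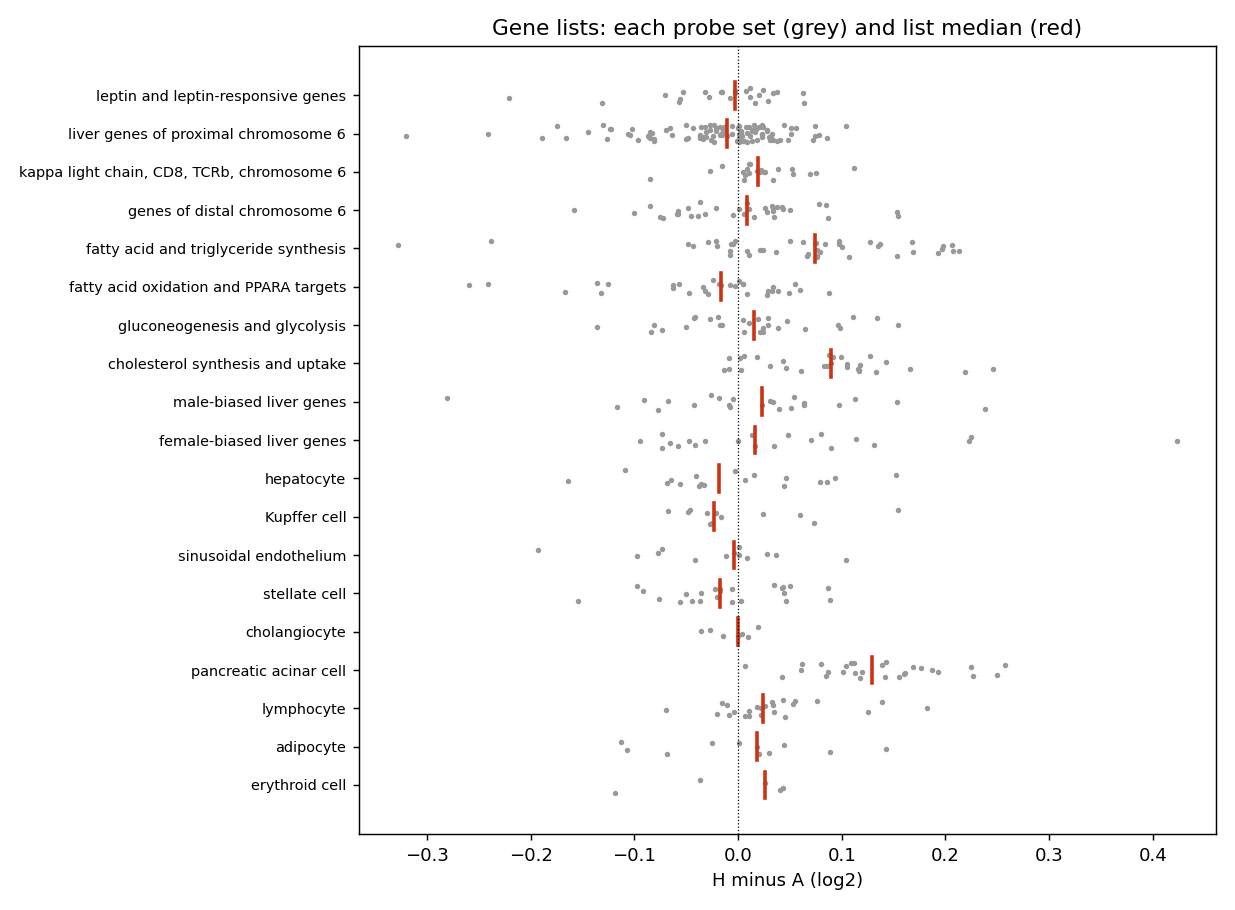
Difference H minus A on the log2 scale (x axis) of every probe set of each gene list (grey points) and the median of the list (red line), for both array types. The medians of the metabolic lists lie between -0.0164 and 0.0899, and the pancreatic acinar list has the highest, at 0.129.

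Markers of other cell types were counted in the same way, since in a whole liver fewer cells of a type and less RNA per cell cannot be told apart. For pancreatic acinar cells, 5 of 28 probe sets were under an unadjusted p of 0.05, all with the higher mean in H mice, for Prss2, Reg1 and Cela2a, and the median was 0.129. H mouse 343 had the highest level of 26 of these 28 probe sets, and its summed log2 level of 13.85 stood above the next highest of 12.30. Without it the number was 0 and the median 0.00766. Among mice with the same call at the next distal marker the number was 9 and the median 0.217. That subset was not chosen to leave out mouse 343, so it does not show what remains without this mouse. In the lymphocyte list, 2 of 24 were under it, Ighm, for the immunoglobulin mu heavy chain, at 0.18 (SE 0.046) and Cd3g, of the T cell receptor complex, at 0.08. On the Ighm probe set 1426196_at levels ran from 4.37 through 4.61 to 4.85 in A mice and from 4.47 through 4.79 to 5.36 in H mice, and 5 H mice lay above every A mouse. These are low levels for the array, and the other 10 Ighm probe sets had differences from -0.069 to 0.139 with unadjusted limma p from 0.135 to 0.949, so the value rests on 1 of 11. The list median was 0.0242.

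In the hepatocyte list 1 of 18 was under it (Ttr, transthyretin, at -0.11), with a median of -0.0179 and 8 above 0. In the stellate list 1 of 24 was under it (Lrat, which makes retinyl esters, at 0.09), although the median was -0.017 and 9 were above 0, and the second Lrat probe set was at -0.036. Both numbers were 0 without mice 416, 560 and 608, and over all the alternatives they reached 3 of 18 and 2 of 24. For Kupffer cells it was 0 of 12, with a median of -0.0227 and 4 above 0. The smallest p was that of Clec4f, also a gene of chromosome 6, at 0.15. Among mice with the same call at the next distal marker the Kupffer median turned to 0.124. For sinusoidal endothelium it was 0 of 13 (median -0.00409, Lyve1 at -0.19), and for cholangiocytes 0 of 7 (median -0.000332, Epcam at -0.04). For adipocytes it was 0 of 11, with a median of 0.0177 and 7 above 0, although the smallest p was that of Fabp4 at -0.11. For erythroid cells it was 0 of 5 (median 0.0258, Hba-a1 at 0.04). The summed hepatocyte level of MOE430A had a median of 17.13 in both groups. The summed adipocyte level of MOE430A ran from 11.76 to 14.00 in A and from 12.73 to 13.79 in H mice. On MOE430B it ran from 6.91 to 9.75 in A and from 7.04 to 10.67 in H mice, where H mouse 105 lay above every A mouse. The 2 probe sets of this list on MOE430B are both for Car3. On MOE430A the Car3 probe sets had mean levels of 12.55 and 11.78, and the other members 8.30 or less. Both sums thus mainly follow Car3 and are not a measure of fat cells.

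Whether the difference depended on sex was tested with an interaction term. limma called 0 probe sets on either array, with 818 (3.62%) on MOE430A and 1317 (5.85%) on MOE430B at an unadjusted p under 0.05, and smallest adjusted p-values of 0.999 and 0.745. The same counts of 0 were found without the 5 mice whose Xist level went against their recorded sex. Among the leading genes, 2610300M13Rik had -0.04 in females and -0.22 in males (limma adjusted p = 0.841 for the difference).

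The body and plasma traits of the same mice did not separate the groups. None of 22 traits, tested with a permutation test of 100000 resamples (two-sided) and adjusted over the 22, was under 0.05, adjusted or not. Body weight at 10 weeks had the smallest p. It ran from 45.8 through a median of 58.4 to 69.2 g in A mice and from 50.6 through 60.15 to 72.7 g in H mice, a difference of means of 3.42 g (SE 1.72, permutation p = 0.054, adjusted p = 0.859). Plasma glucose at 10 weeks was 387.7 ± 125 mg/dl (SD, n = 14) in H and 346.7 ± 120 mg/dl (SD, n = 43) in A mice (permutation adjusted p = 0.927).

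Plasma insulin at 10 weeks ran from 2.8 through a median of 27.1 to 67.3 ng/ml in H mice and from 2.9 through 35 to 104 ng/ml in A mice. On its log10 scale the difference was -0.098 (SE 0.136, permutation adjusted p = 0.927). Liver triglyceride content was 574.5 ± 200 mg/g (SD, n = 14) in H and 558.6 ± 244 mg/g (SD, n = 42) in A mice, a difference of 15.9 (SE 65.4). Among the RT-PCR traits of liver, given as delta Ct, that of GPAT, the acyltransferase that starts triglyceride synthesis, differed by 0.559 (SE 0.308, permutation adjusted p = 0.859). That of PPARg differed by -0.543 (SE 0.379, permutation adjusted p = 0.859). The description of these traits does not say which sign of delta Ct means more transcript, so no direction is given.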

How the data were processed

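Liver RNA of 60 mice was measured on 120 arrays. The values deposited by the authors are log2 signals made from the scanner's cell intensities (MAS5) with RMA (versions not stated). The tables of genotype calls and traits were also deposited by the authors, with traits in their own units (mg/dl, g, ng/ml, mg/g, delta Ct) and insulin also as log10. After 64 control probe sets were removed from each array type, all 22626 (MOE430A) and 22511 (MOE430B) probe sets were tested, with no filter on low values, and each array type was fitted apart. Array data have no counting depth, so their number limits the precision. Each mouse had 1 array of each type, and p-values measure the spread between mice.

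Mice were grouped by the call at D6Mit224 and compared with limma 3.58.1 (lmFit and eBayes, R 4.3.3, no covariate), with Benjamini-Hochberg adjustment over all probe sets of an array type. The sex comparison used a genotype by sex term. Traits were compared by permutation in numpy 2.4.6. The limma step was tested on simulated data. Genes were named through the platform annotation, with symbols updated and gene order taken from RefSeq (GRCm38.p6). On MOE430A 20380 probe sets had 1 symbol, 691 several and 1555 none, and on MOE430B 14661, 245 and 7605. Probe sets without a single symbol were counted and not named. The rule for named genes took Lep, the 15 smallest p-values per array type and 5 off chromosome 6 among adjusted p under 0.05 (there were none), and for each gene list the members under 0.05 or, with none, the one with the smallest p. Every other gene was singled out with its values in view. The comparison, members and lists were chosen with earlier results of these data known. Dose of the B allele, covariates, left-out mice, a second genotype table, normalization and a filter on level were tried as alternatives. Phenotypes of mice without arrays were not used here.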

Additional observations from a re-analysis of the deposited data

How the results depend on the processing

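The count of probe sets that passed an adjusted p of 0.05 was 0 on both array types, on chromosome 6 and in the sex comparison with every alternative run at D6Mit224, and 0 traits passed in every trait alternative. At the median standard error a lone call needed a log2 difference of 0.215 on MOE430A and 0.184 on MOE430B, and less with a lower error. With no adjustment the counts were 966 on MOE430A and 659 on MOE430B. The marker D6Mit14 in place of D6Mit224 gave 4 calls on MOE430A, all on chromosome 6. There most of the same mice are grouped anew by their call at D6Mit14, as 17 A and 29 H. Over 14 alternatives the number at an unadjusted p under 0.05 ran from 394 to 1357 on MOE430A and from 294 to 853 on MOE430B. The lowest counts came from fitting only probe sets above the median level, which tests fewer of them, and the highest on MOE430A came without mice 167, 474 and 559. Without mice 416, 560 and 608 the shares were 1.75% and 2.22%, from 396 and 499 probe sets, and the cause was not tested. Without the 5 mice whose Xist level went against their sex they were 4.11% and 2.71%. Leaving out those 3 or 5 mice was chosen after seeing the data.

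Of 494 values for 37 named probe sets under the alternatives, 493 kept their direction and their side of the threshold. Lep reversed, to -0.0046 when the first principal component was added to the fit, and the cause was not tested. The dose of the B allele and the second genotype table gave the same groups, since no mouse was B and the calls were identical. A robust variance estimate, an adjustment over both array types together and the filter on level also leave each difference as it was. Values from all these alternatives are among the 493, but their direction was fixed in advance and they are no separate support. The difference of Chchd4 ran from -0.18 to -0.10, of Anxa4 (1421223_a_at) from -0.25 to -0.16, of Tia1 (1416812_at) from 0.10 to 0.17 and of Hnrnpf (1456664_x_at) from -0.29 to -0.20, with limma adjusted p-values of 0.451 or higher. The weight difference at 10 weeks had a permutation p of 0.0436 on ranks, with an adjusted p of 0.845. No paired analysis was possible because a mouse is called either A or H, so the groups share no mouse number, and the numbers shared by the array types only name the same mouse.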
